A study of Capra hircus with 9 samples.

Results

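The epidermal growth factor (EGF) receptor family and its ligands were described in the rumen epithelium of goats (Capra hircus) aged 4 months. The members were the rows named AREG, EREG, HBEGF, TGFA and BTC, which encode ligands, and EGFR, ERBB2 and ERBB3, which encode receptors. All 8 were listed in all 9 libraries, out of 18383 genes named in the files, and all 8 passed the filter on low values. The rumen is the fermentation chamber of the goat stomach, and RNA of its lining was sequenced in 3 libraries for each of 3 concentrate diets. The groups carry only the letters LC, MC and HC, which are used here as the titles give them, and tissue and age were the same in all of them. The labels do not say whether each library came from its own animal, so the p-values measure only the spread between these libraries.

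EGF family ligands are made as membrane-anchored precursors that proteases such as ADAM17 cut free. EGFR binds AREG, EREG, HBEGF, TGFA and BTC, while ERBB2 has no known ligand and acts as the preferred partner of the other receptors, and ERBB3 has little kinase activity of its own and passes signals through its partner. In stratified epithelia the family is known for its part in the growth of basal cells and in wound repair, and amphiregulin (AREG) and epiregulin (EREG) are themselves known to be induced by signalling through EGFR.

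Levels are in FPKM, a unit that corrects fragment numbers for gene length and library size, so that they can be compared between genes. The files hold no read counts. Among genes under 0.05 FPKM in both LC3 and a second library, 39.1% to 46.0% of the ratios shared 1 narrow step in LC2, MC2, MC3, HC2 and HC3, which, if that step is the worth of 1 fragment, puts their depth at 0.837 times (HC2) to 1.25 times (MC3) that of LC3. LC1, MC1 and HC1 showed no sharp step (9.0% to 17.0% of ratios in the fullest bin), so their depth relative to LC3 is unknown. Counts of calls without these 3 libraries are given below for the members and for the lists whose calls are counted. The tissue label was checked against 9 markers of basal epithelium, of which 8 were listed in every library with summed FPKM of 3990 to 6500, KRT5 and KRT14 the highest among them. Smooth muscle markers (12 of 12 listed) were uneven, with summed FPKM of 2667 in LC1, 1404 in LC2 and 64.4 in LC3, of 1278 to 3963 in MC and of 120.4 to 157 in HC. Macrophage and Langerhans cell markers (9 of 10 listed) summed to 64.3 to 72.0 FPKM in LC, 19.6 to 28.6 in MC and 31.6 to 41.2 in HC. Of 8 of them tested, 7 were lower in MC minus LC and 4 in HC minus LC, and 0 were higher. In HC minus MC 3 were higher and 1 lower, or 0 and 1 without LC1, MC1 and HC1. T and NK cell markers (8 of 9 listed, 7 in every library) summed over these 7 to 19.2 to 22.1 FPKM in LC, 11.6 to 14.4 in MC and 13.9 to 18.7 in HC. Of 6 tested 4 were lower and 1 higher in MC minus LC, and 5 and 1 in HC minus LC. The higher one was NKG7 in both contrasts. At 2.91 FPKM in LC, 8.50 in MC and 11.8 in HC, NKG7 made up a large part of the MC and HC sums. Markers of the upper epithelium (12 of 15 listed, 9 tested) moved both ways. In MC minus LC, KRT80 (35.7 to 87.1 FPKM) and TGM1 (159 to 336 FPKM) rose and KRT4 (53.8 to 2.03 FPKM) and CNFN (37.1 to 9.34 FPKM) fell, and in HC minus LC 1 was higher and 3 lower. Of 8 basal markers tested, COL17A1 (197 to 115 FPKM) and CDH3 (7.73 to 5.02 FPKM) fell in MC minus LC, 0 rose and 6 did not pass. In HC minus LC, ITGA6 fell (25.8 to 14.8 FPKM), 0 rose and 7 did not pass. Over all tested genes, 16.2% were called higher and 17.1% lower in MC minus LC. These shares were 7.79% and 17.4% in HC minus LC, and 8.0% and 17.0% in HC minus MC. Without LC1, MC1 and HC1 the MC minus LC counts, higher and lower, were 3 and 2 for upper and 0 and 3 for basal markers. They were 0 and 6 for macrophage and Langerhans cell markers, and 1 and 4 for T and NK cell markers. For the same lists in HC minus LC they were 1 and 4, 0 and 1, 0 and 4, and 1 and 5. The part of these cell types and layers in the results below was not tested, except where a fit with the smooth muscle level as covariate is given. In tissue RNA of this kind, fewer cells of a type and less RNA per cell cannot be told apart.

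Receptor transcripts were more abundant than ligand transcripts. By mean FPKM over the 9 libraries the order was ERBB2 (55.3), ERBB3 (40.3), EGFR (24.2), HBEGF (13.0), TGFA (9.22), AREG (7.60), EREG (2.42) and BTC (1.89). ERBB2 lay above 87.0% of the tested genes on this scale and BTC above 13.2%. Every neighbouring pair in this order had overlapping ranges, although ERBB3 exceeded EGFR, and AREG exceeded EREG, in 9 of 9 libraries. The order itself differed between diets. In LC the ranges of neighbours were separate except for BTC and AREG, and EREG came last. In MC, the range of HBEGF (mean 18.5 FPKM) overlapped that of EGFR (18.6 FPKM), that of ERBB3 (33.0 FPKM) overlapped ERBB2 (32.1 FPKM), and AREG lay above TGFA in every library. In HC, ERBB2, ERBB3 and EGFR stayed apart from each other and from all ligands, and TGFA, HBEGF and AREG overlapped.

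**Figure D1:**
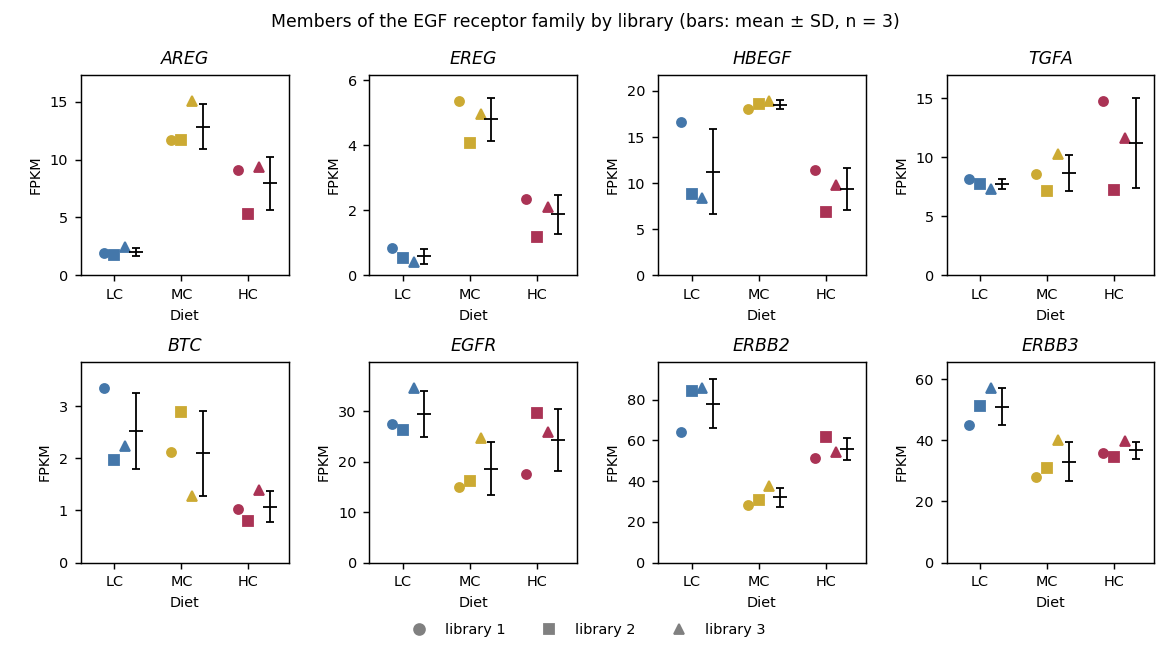
FPKM of each of the 8 genes (vertical axes, from 0) in each library, grouped by diet; circles, squares and triangles are libraries 1, 2 and 3, and black marks are the mean ± SD of 3 libraries. AREG and EREG are low in all LC libraries and highest in MC, while ERBB2 is lowest in MC and highest in LC.

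Amphiregulin differed most among the ligands in absolute level. AREG (chromosome 6, 86613669 to 86623282) stood at 1.94, 1.73 and 2.41 FPKM in LC1 to LC3, at 11.7, 11.7 and 15.1 FPKM in MC1 to MC3, and at 9.12, 5.28 and 9.38 FPKM in HC1 to HC3. No library of one diet overlapped those of another, and HC2 was the lowest outside LC. The mean was 2.03 ± 0.349 FPKM in LC (SD, n = 3), 12.8 ± 1.95 FPKM in MC and 7.93 ± 2.30 FPKM in HC. In MC minus LC the log2 change of FPKM + 1 was 2.19 ± 0.19 (SE, limma adjusted p = 1.25e-05), and AREG also rose in HC minus LC (1.53 ± 0.19, limma adjusted p = 2.28e-04). In HC minus MC it fell by 0.66 ± 0.19 on the log2 scale (limma adjusted p = 0.0265), a call that was lost after median-of-ratios scaling (adjusted p = 0.0528), after quantile normalization (0.0705), with the smooth muscle level as covariate (0.0605, log2 change -0.91 ± 0.28), and without HC2 (0.0837), MC1 (0.0522), MC2 (0.0553) or MC3 (0.0866).

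Epiregulin followed the same order of diets at a lower level. EREG (chromosome 6, 86550090 to 86558429) stood at 0.839, 0.515 and 0.392 FPKM in LC1 to LC3, at 5.36, 4.07 and 4.95 FPKM in MC1 to MC3, and at 2.35, 1.18 and 2.08 FPKM in HC1 to HC3. The 3 diets did not overlap, and no LC library reached 1 FPKM. The mean in MC (4.79 ± 0.664 FPKM, n = 3) was 8.24 times that in LC (0.582 ± 0.231 FPKM), and the mean in HC was 1.87 ± 0.609 FPKM. On the log2(FPKM + 1) scale, which understates changes at such low values, EREG rose by 1.88 ± 0.18 in MC minus LC (limma adjusted p = 2.54e-05) and by 0.85 ± 0.18 in HC minus LC (adjusted p = 0.00626). HC minus MC gave a log2 change of -1.03 ± 0.18 (limma adjusted p = 0.00258, but 0.0744 with the smooth muscle level as covariate, where the log2 change was -0.84 ± 0.28).

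The heparin-binding ligand HBEGF, whose precursor is also known as the diphtheria toxin receptor, was the most abundant ligand in LC and MC. HBEGF (chromosome 7, 47718850 to 47730687) stood at 16.6, 8.78 and 8.34 FPKM in LC1 to LC3, at 18.0, 18.6 and 18.9 FPKM in MC1 to MC3, and at 11.4, 6.88 and 9.78 FPKM in HC1 to HC3. MC was the highest and the tightest group, with a mean of 18.5 ± 0.471 FPKM (SD, n = 3), and LC1 stood near it, apart from LC2 and LC3. HBEGF rose in MC minus LC (log2 change 0.74 ± 0.23, limma adjusted p = 0.0338) and fell in HC minus MC (log2 change -0.94 ± 0.23, limma adjusted p = 0.0164), while HC minus LC did not pass (-0.20, 95% interval -0.72 to 0.32, adjusted p = 0.559). Smooth muscle markers were high in LC1, LC2 and the MC libraries, and with that level as covariate the MC minus LC change was 0.55 (limma adjusted p = 0.0838) and the HC minus MC change -0.50 (adjusted p = 0.342). The MC minus LC call was also lost with libraries scaled to the same FPKM sum (limma adjusted p = 0.119) and without LC2 (0.114), LC3 (0.103), MC1 (0.0793), MC2 (0.081), MC3 (0.0828) or HC3 (0.0504), and that of HC minus MC without MC2 (0.0505) or HC2 (0.0624).

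TGFA and BTC did not follow AREG and EREG. TGFA, the ligand that keratinocytes are known to make for themselves (chromosome 11, 13704712 to 13814809), stood at 8.18, 7.71 and 7.31 FPKM in LC1 to LC3, at 8.61, 7.19 and 10.3 FPKM in MC1 to MC3, and at 14.8, 7.22 and 11.7 FPKM in HC1 to HC3. The 3 diets overlapped, and the spread within HC was the widest. No contrast passed the test: the log2 change was 0.44 in HC minus LC (95% interval -0.02 to 0.89, limma adjusted p = 0.146), 0.14 in MC minus LC (-0.32 to 0.60, adjusted p = 0.646) and 0.30 in HC minus MC (-0.16 to 0.75, adjusted p = 0.311). Without HC2, TGFA passed as higher in HC minus LC (0.70, limma adjusted p = 0.0128) and in HC minus MC (0.56, adjusted p = 0.0375), and with library weights it passed in both as well (0.53, adjusted p = 0.00452, and 0.45, adjusted p = 0.0111).

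Betacellulin, a ligand of both EGFR and ERBB4, was the one of the 5 ligands whose mean was highest in LC. BTC (chromosome 6, 86917771 to 87073846) stood at 3.34, 1.97 and 2.23 FPKM in LC1 to LC3, at 2.13, 2.89 and 1.27 FPKM in MC1 to MC3, and at 1.03, 0.800 and 1.39 FPKM in HC1 to HC3. All HC libraries lay below all LC libraries, and MC overlapped both. BTC fell in HC minus LC (log2 change -0.75 ± 0.21, limma adjusted p = 0.0236), and did not pass in MC minus LC (-0.20, 95% interval -0.66 to 0.26, adjusted p = 0.506) or HC minus MC (-0.55, -1.02 to -0.09, adjusted p = 0.0759). The HC minus LC call was lost after quantile normalization (limma adjusted p = 0.0815), with the smooth muscle level as covariate (0.122), with LC3 alone for LC (0.177), without LC1 (0.0729), HC1 (0.0548) or HC2 (0.0802), and without the 3 libraries numbered 1 (0.143). HC minus MC passed with library weights (limma adjusted p = 0.00871), without LC1 (0.0477) and without MC3 (0.0266).

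Among the receptors, ERBB2 differed most. ERBB2 (chromosome 19, 39249752 to 39267050) stood at 64.4, 84.2 and 85.7 FPKM in LC1 to LC3, at 28.3, 30.6 and 37.4 FPKM in MC1 to MC3, and at 51.2, 61.5 and 54.5 FPKM in HC1 to HC3. No diet overlapped another, with HC between the other diets. The mean in LC (78.1 ± 11.9 FPKM, n = 3) was 2.43 times that in MC (32.1 ± 4.70 FPKM), and the mean in HC was 55.8 ± 5.26 FPKM. ERBB2 fell in MC minus LC (log2 change -1.25 ± 0.16, limma adjusted p = 1.28e-04) and rose in HC minus MC (0.78 ± 0.16, limma adjusted p = 0.00467, but 0.162 with the smooth muscle level as covariate, where the log2 change was 0.52 ± 0.22). The fall in HC minus LC was near the threshold (-0.47 ± 0.16, limma adjusted p = 0.044): it was lost after median-of-ratios scaling (0.0931), with only the 2 diets in the fit (0.0753), with LC3 alone for LC (0.0624) and without LC2 (0.126), LC3 (0.123), MC1 (0.0562), MC2 (0.0662), HC1 (0.112), HC2 (0.0534) or HC3 (0.125).

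ERBB3, the partner that links ERBB2 to phosphoinositide 3-kinase, was highest in LC. ERBB3 (chromosome 5, 55702268 to 55723605) stood at 44.9, 51.1 and 57.1 FPKM in LC1 to LC3, at 28.0, 31.0 and 40.1 FPKM in MC1 to MC3, and at 35.9, 34.5 and 39.8 FPKM in HC1 to HC3. The LC libraries lay above all others, and MC and HC overlapped. ERBB3 fell in MC minus LC (log2 change -0.62 ± 0.15, limma adjusted p = 0.0085), a call kept under every alternative run, and in HC minus LC (-0.46 ± 0.15, limma adjusted p = 0.0447). The latter was lost after median-of-ratios scaling (adjusted p = 0.0979), with only the 2 diets in the fit (0.0542), with LC3 alone for LC (0.0754) and without LC2 (0.0973), LC3 (0.131), MC2 (0.0656), HC1 (0.0914), HC2 (0.124) or HC3 (0.0768). HC minus MC did not pass (0.16, 95% interval -0.17 to 0.49, limma adjusted p = 0.455).

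EGFR itself, the receptor of all 5 ligands, was higher in LC than in MC. Within HC its coefficient of variation was 25.2%, against 9.44% for ERBB2 and 7.38% for ERBB3. EGFR (chromosome 22, 785627 to 852401) stood at 27.4, 26.3 and 34.6 FPKM in LC1 to LC3, at 15.0, 16.2 and 24.7 FPKM in MC1 to MC3, and at 17.6, 29.6 and 25.9 FPKM in HC1 to HC3. The MC libraries lay below all LC libraries, and HC overlapped both. EGFR fell in MC minus LC (log2 change -0.66 ± 0.22, limma adjusted p = 0.0374), but this call was lost with the smooth muscle level as covariate (0.0994), with LC3 alone for LC (0.0773), without LC1 (0.0566), LC2 (0.0549), LC3 (0.113), MC1 (0.135), MC2 (0.12) or HC3 (0.0518), and without the 3 libraries numbered 1 (0.0763). It did not pass in HC minus LC (-0.28, 95% interval -0.76 to 0.19, limma adjusted p = 0.361) or in HC minus MC (0.37, -0.10 to 0.85, adjusted p = 0.225).

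**Figure D2:**
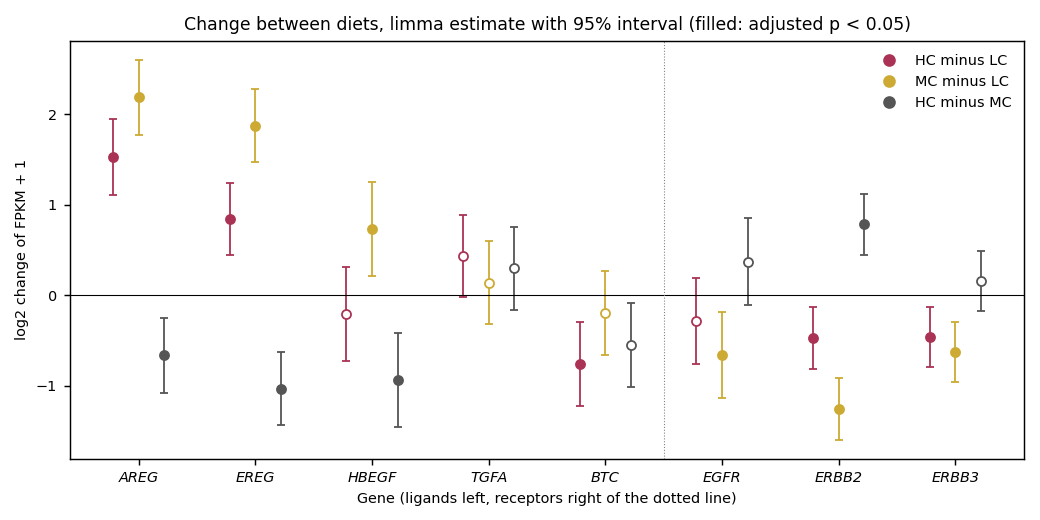
Log2 change of FPKM + 1 between diets (vertical axis) for each gene, with the limma estimate as a point, its 95% interval as a bar and filled points for an adjusted p under 0.05. AREG and EREG lie furthest above 0 in MC minus LC (2.19 and 1.88) and ERBB2 furthest below (-1.25).

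Counted over the family, MC minus LC called 6 of 8 members, 3 higher (AREG, EREG and HBEGF) and 3 lower (EGFR, ERBB2 and ERBB3), where 16.2% of the 11668 tested genes were called higher and 17.1% lower. HC minus LC called 2 members higher (AREG and EREG) and 3 lower (BTC, ERBB2 and ERBB3), against 7.79% and 17.4% of all tested genes. HC minus MC called 1 member higher (ERBB2) and 3 lower (AREG, EREG and HBEGF), against 8.0% and 17.0%. The F test over the 3 diets called 6 members, all but TGFA and EGFR, against 45.2% of tested genes. Without the 3 libraries numbered 1 the counts were 5 in MC minus LC, 4 in HC minus LC and 4 in HC minus MC, and with LC3 alone for LC they were 5, 2 and 4. The median log2 change of the members was -0.03 in MC minus LC, -0.24 in HC minus LC and -0.20 in HC minus MC, beside -0.0067, -0.10 and -0.10 over all tested genes. On the deposited scale the median gene was thus lower in HC than in LC and MC, and whether scaling or expression lies behind this was not tested. Median-of-ratios scaling called 1494 genes higher and 1329 lower in HC minus LC, against 909 and 2030 as deposited. In HC minus MC it called 1513 and 1319, against 933 and 1984. Scaling to the same FPKM sum moved the split of HC minus MC to 538 higher and 2768 lower.

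Shares within a library are not moved by a scaling factor per library, and they gave the ligands a different make-up in each diet. AREG and EREG together made up 9.0% to 13.6% of the summed FPKM of the 5 ligands in LC, 35.5% to 39.7% in MC and 29.6% to 33.4% in HC. The 3 ranges did not overlap. BTC held 9.52% to 10.8% in LC and 2.51% to 6.50% in the other diets. HBEGF was the largest share in every LC and MC library (37.5% to 53.7%), and TGFA was the largest in every HC library (33.8% to 38.2%).

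The summed receptors were 137 to 178 FPKM in LC, 71.3 to 102 FPKM in MC and 105 to 126 FPKM in HC, and the summed ligands 20.7 to 30.9, 44.4 to 50.5 and 21.4 to 38.7 FPKM. Receptor transcripts exceeded ligand transcripts 4.42 to 8.58 times in LC, 1.56 to 2.02 times in MC and 2.71 to 5.88 times in HC, so that MC lay below both other diets, which overlapped. The ratio of ERBB2 to ERBB3 was 0.932 to 1.01 in MC and 1.37 to 1.78 in the other libraries. ERBB2 held 36.6% to 39.7% of the summed receptors in MC, 47.1% to 52.1% in LC and 45.4% to 49.0% in HC, and ERBB3 held 39.2% to 39.8% in MC and 27.5% to 34.3% elsewhere. The EGFR share was 16.3% to 20.1% in LC, 20.8% to 24.1% in MC and 16.8% to 23.6% in HC, so that LC and MC were apart and HC overlapped both. Sums over the members were not tested, since the members were chosen with earlier results known.

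**Figure D3:**
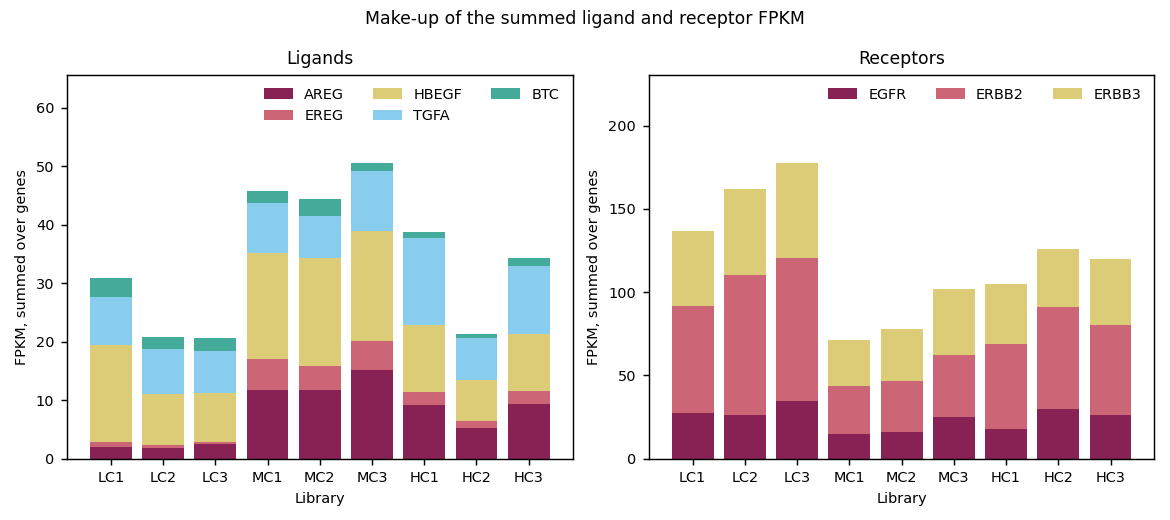
Summed FPKM (vertical axes, from 0) of the 5 ligands (left) and the 3 receptors (right) in each of the 9 libraries, with each gene as a coloured section. The AREG and EREG sections are thin in LC and thick in MC, and the MC bars of the receptors are the shortest, at 71.3 to 102 FPKM.

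Within diets, several members had their lowest or highest value in the same library, though not all in the same direction. With 3 libraries per diet some members must share such a library. How many of all tested genes did so was not counted, so this is not shown to be a trait of the members. In HC2 all 5 ligands and ERBB3 were at their lowest of the 3 HC libraries, while EGFR and ERBB2 were at their highest. In MC3 the 3 receptors, AREG, HBEGF and TGFA were at their highest of the MC libraries, and BTC was at its lowest. In LC1 the ligands EREG, HBEGF, TGFA and BTC were at their highest of the LC libraries, and ERBB2 and ERBB3 at their lowest. HC2 also had the lowest inferred depth of the libraries with a sharp step, and LC1 the most smooth muscle markers in LC. Their part in these values was not tested.

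By position, EREG, AREG and BTC are neighbours on chromosome 6, in this order and with EPGN, the gene of the ligand epigen, before them. EREG ends 55239 bp before AREG starts, and BTC starts 294488 bp after AREG ends, with no listed gene in either gap. None of the 8 members overlaps another listed gene. The adjacent pair EREG and AREG shared the order LC, HC, MC, and BTC at the other end of the cluster did not. The ratio of AREG to EREG was 2.31 to 6.16 in LC, 2.19 to 3.05 in MC and 3.89 to 4.5 in HC. PARM1, the next listed gene after BTC, passed only in HC minus MC, where it was lower (3.22 and 0.786 FPKM). ERBB2 lies 558 bp from MIEN1, which passed in no contrast (27.5 FPKM in LC, 28.1 in MC and 34.1 in HC), and ERBB3 lies 912 bp from PA2G4, the gene of the ERBB3-binding protein, which was higher in MC (100.9 FPKM) than in LC (74.6 FPKM) and HC (72.7 FPKM).

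Of the other ligands and the remaining receptor, NRG2 and NRG4 reached 1 FPKM. NRG2, a neuregulin ligand of ERBB3 and ERBB4, was the one of them listed in all libraries and tested, with 1.54 FPKM in LC, 0.507 in MC and 0.691 in HC, and it fell in MC minus LC (log2 change -0.75 ± 0.15, limma adjusted p = 0.00302) and in HC minus LC (-0.59 ± 0.15, limma adjusted p = 0.0164, between 6.79e-04 and 0.159 over the alternatives, 6 of 23 of which lost the call). NRG4, a ligand of ERBB4 whose listed span overlaps other genes, stood at 2.51 to 3.49 FPKM in HC and 0.230 to 0.736 FPKM in MC, and at 0.715 and 0.175 FPKM in LC2 and LC3, and was not listed in LC1. All HC libraries lay above all other libraries that list it, and above EREG and BTC in HC. With unlisted genes set to 0, NRG4 could be tested: it rose in HC minus LC (log2 change 1.64 ± 0.22, limma adjusted p = 0.000423) and in HC minus MC (1.39 ± 0.22, limma adjusted p = 0.00159), and did not pass in MC minus LC (0.25 ± 0.22, adjusted p = 0.415). EGF was listed in 5 libraries at no more than 0.0377 FPKM, EPGN in 4 at no more than 0.282 FPKM, and ERBB4 in 7 at no more than 0.0829 FPKM. Of 6 ligands looked for by name outside the members 4 were listed, and no row was named NRG1 or NRG3. A row under another name would be missed.

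Among genes of ligand release, RHBDF2 had its highest level in MC. Of 9 listed genes 8 were tested, with 2 higher and 1 lower in MC minus LC, 1 higher and 3 lower in HC minus LC, and 0 higher and 3 lower in HC minus MC (medians -0.10, -0.30 and -0.09, beside -0.0067, -0.10 and -0.10 over all tested genes). Of all tested genes, 16.2% higher and 17.1% lower, 7.79% and 17.4%, and 8.0% and 17.0% were called in these contrasts. Without the libraries numbered 1 these counts were the same, and with the smooth muscle level as covariate they were 2 and 0, 0 and 1, and 0 and 1. RHBDF2, an inactive rhomboid that carries ADAM17 to the cell surface, was highest in MC at 4.28, 4.51 and 6.10 FPKM, against 2.0 to 2.5 in LC and 1.73 to 2.09 in HC. It rose in MC minus LC (log2 change 0.86 ± 0.14, limma adjusted p = 8.75e-04) and fell in HC minus MC (-1.01 ± 0.14, limma adjusted p = 7.24e-04), both under all alternatives run. ADAM17, the main sheddase of AREG, EREG, HBEGF and TGFA, fell in HC minus MC (9.81 to 6.41 FPKM, log2 change -0.55 ± 0.12, limma adjusted p = 0.00734, between 4.82e-04 and 0.149 over the alternatives) and did not pass in the other contrasts. FRMD8, which stabilises the rhomboid and ADAM17 complex, fell from 31.5 FPKM in LC to 21.4 in MC (limma adjusted p = 0.0237) and 20.8 in HC (adjusted p = 0.0239), and 4 of 24 alternatives lost either call. ADAM15 was higher in HC (77.4 FPKM) and MC (70.4 FPKM) than in LC (49.3 FPKM), RHBDF1 was lower in HC (5.5 FPKM) than in LC (7.45 FPKM) and MC (7.59 FPKM), and ADAM10, the main sheddase of BTC, was lower in HC (10.1 FPKM) than in LC (14 FPKM), and of 24 alternatives 4 lost the ADAM15 call in HC minus LC and 9 that in MC minus LC, 10 lost the RHBDF1 call in HC minus LC and 7 that in HC minus MC, and 13 lost the ADAM10 call.

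Of the partners and traffic genes of the receptors, 13 were tested. The counts of higher and lower genes in MC minus LC, HC minus LC and HC minus MC were 1 and 1, 0 and 2, and 0 and 1 (medians 0.06, -0.05 and -0.03), where 16.2% higher and 17.1% lower, 7.79% and 17.4%, and 8.0% and 17.0% of all tested genes were called, and without the libraries numbered 1 they were 1 and 2, 0 and 2, and 1 and 2. ERBB2IP, the gene of a protein that binds ERBB2 at the basolateral membrane, fell in both diets relative to LC, from 11.3 FPKM to 7.54 in MC (log2 change -0.52 ± 0.11, limma adjusted p = 0.0047) and 7.55 in HC (-0.52 ± 0.11, limma adjusted p = 0.00672), under all alternatives run. USP8, a deubiquitinase of internalised receptors, was lower in HC (14.2 FPKM) than in LC (19.0 FPKM, limma adjusted p = 0.035), and CD9, a tetraspanin that associates with the HBEGF precursor, was higher in MC (1483 FPKM) than in LC (1039 FPKM, limma adjusted p = 0.0465) and HC (998 FPKM, limma adjusted p = 0.0408). Of these last calls, 9, 10 and 8 of 24 alternatives lost them.

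Among feedback inhibitors, ERRFI1 and DUSP6 rose in both diets relative to LC. Of 26 listed genes 22 were tested, with 4 higher and 3 lower in MC minus LC, 3 higher and 1 lower in HC minus LC, and 3 higher and 2 lower in HC minus MC (medians -0.06, -0.19 and -0.09 beside -0.0067, -0.10 and -0.10 over all tested genes). The shares called over all tested genes were 16.2% higher and 17.1% lower, 7.79% and 17.4%, and 8.0% and 17.0%. Without the libraries numbered 1 the counts were 4 and 3, 3 and 3, and 2 and 2. ERRFI1, which encodes the direct EGFR and ERBB2 kinase inhibitor MIG6, stood at 5.54 to 6.45 FPKM in LC, 11.1 to 11.6 FPKM in MC and 12.7 to 16.2 FPKM in HC, with no overlap between diets. It rose in HC minus LC (log2 change 1.16 ± 0.12, limma adjusted p = 5.26e-05) and in MC minus LC (0.81 ± 0.12, limma adjusted p = 4.06e-04), under all alternatives run. The HC minus MC difference of ERRFI1 was small (0.35, limma adjusted p = 0.0483) and 16 of 24 alternatives lost it.

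DUSP6, a phosphatase of the kinases ERK1 and ERK2, stood at 4.00 to 5.87 FPKM in LC, 9.95 to 12.4 FPKM in MC and 13.2 to 16.1 FPKM in HC. It rose in HC minus LC (log2 change 1.38 ± 0.15, limma adjusted p = 8.09e-05) and in MC minus LC (0.95 ± 0.15, limma adjusted p = 6.37e-04), under all alternatives run. Its relative DUSP4 took another course: its mean was lowest in MC (1.71 FPKM), intermediate in LC (3.80 FPKM) and highest in HC (6.28 FPKM). HC minus MC (1.42 ± 0.19, limma adjusted p = 5.88e-04) passed under all alternatives run. The HC minus LC call of DUSP4 (limma adjusted p = 0.035) was lost in 8 of 24 alternatives, and that of MC minus LC (limma adjusted p = 0.00765) in 1. SOCS3, an inhibitor of cytokine receptor signalling, fell from 4.02 FPKM in LC to 1.67 in MC (limma adjusted p = 0.00269) and 1.48 in HC (adjusted p = 0.00213), and 1 alternative lost each call. SOCS4 rose in MC minus LC (1.54 to 3.52 FPKM, limma adjusted p = 0.0016, under all alternatives run) and fell in HC minus MC (to 1.90 FPKM, adjusted p = 0.0113, lost in 4). TOB1, an antiproliferative factor, fell in MC minus LC (34.4 to 22.8 FPKM, limma adjusted p = 0.0125, lost in 2 alternatives) and rose in HC minus MC (to 37.8 FPKM, adjusted p = 0.00598, lost in 1). UBASH3B was lower in HC (0.748 FPKM) than in MC (1.65 FPKM, limma adjusted p = 0.0108).

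Of the adaptors and kinases, 36 were tested, with 4 higher and 5 lower in MC minus LC, 3 and 5 in HC minus LC, and 4 and 3 in HC minus MC (medians -0.02, -0.01 and -0.03). Over all tested genes the shares called were 16.2% higher and 17.1% lower, 7.79% and 17.4%, and 8.0% and 17.0%. For the list, without the libraries numbered 1 the counts were 5, 2 and 7 higher and 4, 1 and 5 lower. With the smooth muscle level as covariate they were 4, 1 and 0 higher and 5, 0 and 1 lower. MAP2K2, one of the kinases that activate ERK1 and ERK2, rose from 60.3 to 77.2 FPKM in LC to 95.8 to 124.7 FPKM in MC (log2 change 0.65 ± 0.17, limma adjusted p = 0.0126) and 121 to 172 FPKM in HC (1.08 ± 0.17, limma adjusted p = 9.93e-04). MAP2K1 rose in both diets as well, to 48.0 FPKM in MC (limma adjusted p = 0.00699) and 43.2 FPKM in HC (adjusted p = 0.0366) from 31.5 FPKM in LC. PIK3R1 and PIK3R2, regulatory subunits of the phosphoinositide 3-kinase that ERBB3 recruits, were lower in MC, with PIK3R1 at 25.2 FPKM against 44.4 in LC (log2 change -0.80 ± 0.15, limma adjusted p = 0.00188) and PIK3R2 at 18.3 FPKM against 36.9 in LC (-0.99 ± 0.24, limma adjusted p = 0.00835). STAT3 fell in MC minus LC too (62.6 to 38.6 FPKM, limma adjusted p = 0.00264). GAB2, an adaptor of phosphoinositide 3-kinase, was highest in HC (9.59 FPKM, against 6.22 in LC and 4.89 in MC), and YES1, a SRC family kinase, was highest in MC (21.4 FPKM, against 14.5 in LC and 14.9 in HC). ARAF was higher in HC (26.9 FPKM) than in MC (18.8 FPKM), and NCK1 (12.3 and 17.0 FPKM) and NCK2 (15.6 and 21.4 FPKM) were lower. STAT5B, PLCG1 and FYN fell in HC minus LC (to 1.65, 12.9 and 1.06 FPKM), calls that 11 alternatives each lost. GRB2, SHC1, SOS1 and HRAS passed in no contrast. NRAS passed as lower in HC (17.6 FPKM) than in LC (23.8 FPKM), but only just (limma adjusted p = 0.0498). The 3 MC calls of PIK3R1, PIK3R2 and STAT3 held under all alternatives run, while 2 alternatives lost MAP2K2 in MC minus LC and 11 lost MAP2K1 in HC minus LC. Of 24 alternatives, 10 lost the GAB2 call in HC minus LC and 1 that in HC minus MC. For YES1, 1 lost the MC minus LC call and 3 that in HC minus MC. In HC minus MC, 5 lost the ARAF call, 8 that of NCK1 and 4 that of NCK2.

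**Figure D4:**
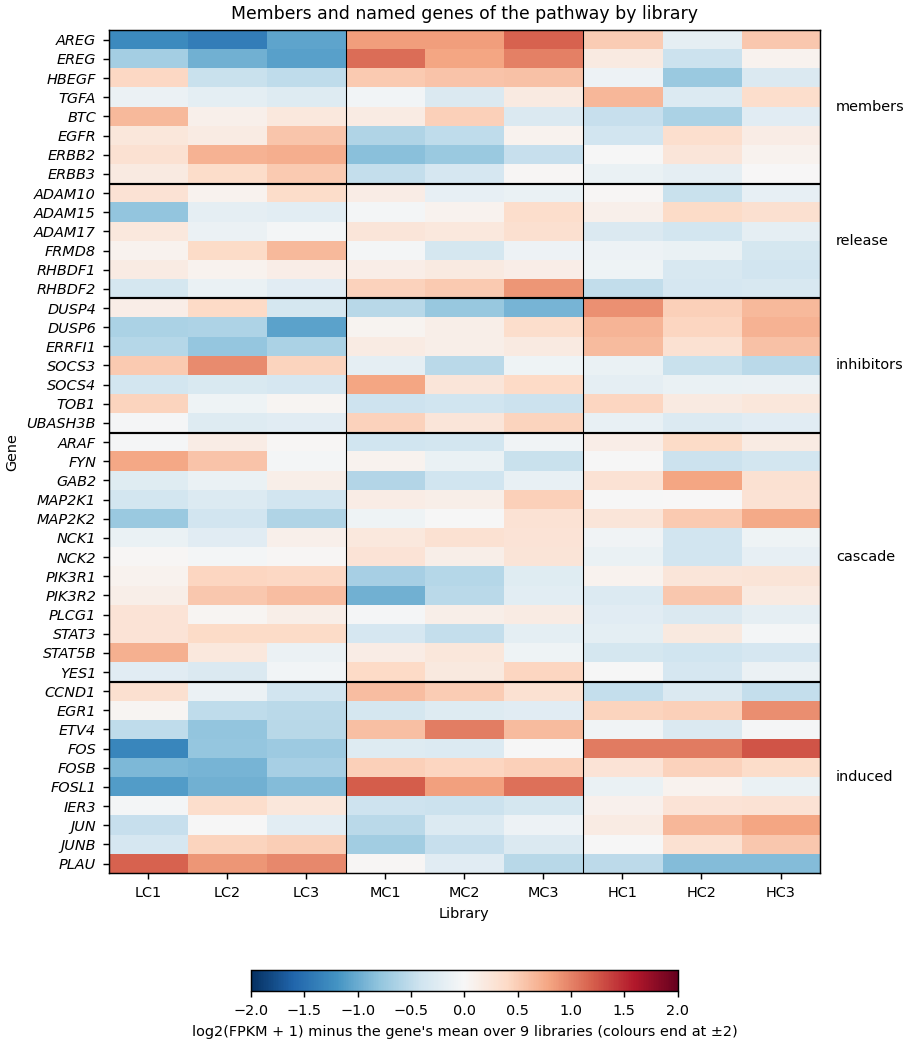
Level of each gene (rows) in each library (columns) as log2(FPKM + 1) minus the gene's mean over the 9 libraries, from blue (lower) to red (higher), for the members and the named genes of 4 of the pathway lists. The rows of AREG, EREG, FOSB and FOSL1 are blue in LC and red in MC, those of ERRFI1 and DUSP6 are blue in LC and reddest in HC, and those of ERBB2 and PIK3R1 are bluest in MC.

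Genes that receptor signalling is known to induce changed in each contrast, in both directions. Of 26 listed genes 22 were tested, with 9 higher and 3 lower in MC minus LC, 9 higher and 1 lower in HC minus LC, and 5 higher and 8 lower in HC minus MC (medians 0.29, 0.21 and -0.07 beside -0.0067, -0.10 and -0.10 over all tested genes). Beside these counts stand 16.2% higher and 17.1% lower, 7.79% and 17.4%, and 8.0% and 17.0% of all tested genes. Without the libraries numbered 1 the pairs of counts were 9 and 3, 7 and 2, and 5 and 6, and with the smooth muscle level as covariate 7 and 2, 7 and 1, and 2 and 3. These genes answer to many other signals, and EGFR activity was not measured.

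FOSL1, a subunit of the transcription factor AP-1, followed the order of AREG and EREG. It stood at 0.0511 to 0.241 FPKM in LC, 3.02 to 4.26 FPKM in MC and 1.07 to 1.39 FPKM in HC, with no overlap. FOSL1 rose in MC minus LC (log2 change 2.03 ± 0.15, limma adjusted p = 4.98e-06) and in HC minus LC (0.92 ± 0.15, limma adjusted p = 0.00134), and fell in HC minus MC (-1.11 ± 0.15, limma adjusted p = 6.19e-04). ETV4, an ETS factor downstream of ERK, had its means in the same order (0.578, 3.11 and 1.21 FPKM in LC, MC and HC), with a log2 change of 1.37 ± 0.16 in MC minus LC (limma adjusted p = 8.23e-05). FOS, EGR1 and JUN were instead highest in HC, with FOS at 9.64 FPKM in LC, 16.7 in MC and 42.5 in HC, EGR1 at 2.15, 2.23 and 5.09 FPKM, and JUN at 105, 99.8 and 181 FPKM. FOSB rose from 0.111 FPKM in LC to 1.71 in MC (limma adjusted p = 5.28e-05) and 1.54 in HC (adjusted p = 0.00015). PLAU, the urokinase gene, went the other way and fell from 6.19 FPKM in LC to 2.04 in MC and 1.13 in HC. CCND1, which encodes cyclin D1, was lower in HC (5.25 FPKM) than in MC (10.6 FPKM, limma adjusted p = 0.00361). IER3 (105 FPKM against 158) and JUNB (140.3 FPKM against 232) were lower in MC than in LC. All calls given here for FOSL1, ETV4, FOS, EGR1, FOSB, PLAU and IER3 held under all alternatives that tested them. The HC minus MC calls of JUN and of CCND1 were lost in 1 alternative each, and the MC minus LC call of JUNB in 8.

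The genes most like each member over the 9 libraries were named by Pearson correlation of log2(FPKM + 1) among tested genes with a symbol, a description in which all points share the libraries and the diet means. For AREG these were NXT1 (r = 0.990), MAPK6 (0.980) and ACADSB (0.976). For EREG they were PGP (0.993), TYMS (0.987) and FUBP1 (0.986). For HBEGF they were TBC1D24 (0.969), STX16 (0.969) and KIAA0907 (0.964), and for BTC, ARMCX2 (0.957), RBMS2 (0.954) and IRF1 (0.953). For ERBB2 they were PLIN2 (0.992), KLHL21 (0.991) and KCTD1 (0.988), and for ERBB3, RAC3 (0.970), KIAA0586 (0.962) and SLX4IP (0.962). MAPK6, which encodes the atypical kinase ERK3, stood at 12.7 FPKM in LC, 32.5 in MC and 24.7 in HC, and TYMS, thymidylate synthase, at 2.80, 9.36 and 4.92 FPKM. PLIN2, a lipid droplet coat protein, stood at 129 FPKM in LC, 62.3 in MC and 101 in HC.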

How the data were processed

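RNA of rumen epithelium was sequenced in 9 libraries. The authors deposited 1 FPKM value per gene and library. The submitters' processing notes name Bowtie 1.2.0 and Cufflinks 2.2.1 without their settings, and no header or label states the unit, which was taken from the tool and the range of the values. Build, strand handling and mapped depth: not given in the sources used here. Positions are the files' own, and a chromosome was assigned by the symbols it shares with RefSeq (ARS1.2). Lines whose name was only digits (18 to 21 in each LC and MC file, 0 in HC) were dropped, and repeated lines of a gene were added. The HC files also held empty lines, so file form and diet cannot be told apart.

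A gene was tested if listed in all 9 libraries and at 1 FPKM or more in 3 (11668 genes). On log2(FPKM + 1), limma 3.58.1 (R 4.3.3; eBayes with trend and robust options) fitted all libraries together, two-sided, with Benjamini-Hochberg adjustment over tested genes for each contrast and a threshold of 0.05. The code was tested on simulated data. "Higher", "lower", "rose" and "fell" refer to that threshold where a test is given. Named genes are the members, every other listed ligand or receptor, per list and contrast the 3 smallest adjusted p-values in each direction where the larger diet mean reached 1 FPKM, and 3 correlated genes for each member past the F test. PARM1, MIEN1, PA2G4, NRAS, GRB2, SHC1, SOS1, HRAS, KRT5, KRT14, KRT4, KRT80, TGM1, CNFN, COL17A1, CDH3, ITGA6 and NKG7 were named after their values were seen. The members and lists were chosen with earlier results of these data known. Alternatives varied pseudocount, filter, scaling, moderation, weights, covariate, replicate block and libraries. Plots used matplotlib 3.10.9 (Python 3.11.15).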

Additional observations from a re-analysis of the deposited data

How the results depend on the processing

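Of 24 alternatives, 23 were planned and 1 (without the libraries numbered 1) was chosen after seeing the data. Of 570 member results under them, 498 kept direction and side of the threshold, 55 lost and 9 gained a call, and 8 changed sign. The rises of AREG and EREG in both contrasts with LC, and the falls of ERBB2 and ERBB3 in MC minus LC, kept their calls in every alternative that tested them (a minimum of 1 FPKM in every library removes EREG and BTC). The sign changes were of values past the threshold in neither fit. HBEGF in HC minus LC was 0.094 with library weights, 0.048 with the smooth muscle covariate and 0.125 with LC3 alone, and -0.366 to 0.091 when 1 library was left out. BTC in MC minus LC was 0.089 with library weights and -0.382 to 0.008 when 1 library was left out. ERBB3 in HC minus MC was -0.003 with libraries scaled to the same FPKM sum and -0.12 with the covariate.

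Members called were 5 for HC minus LC, but 3 with at least 1 FPKM in every library (fewer members tested), 3 after median-of-ratios scaling, 3 with only the 2 diets fitted and 2 with LC3 alone. They were 4 for HC minus MC, but 8 with library weights and 0 in limma with the covariate, where 3 had an unadjusted p under 0.05 and where every HC library has a lower covariate than every MC library. Library weights called 5889 genes for HC minus LC, 6590 for HC minus MC and 8711 in the F test. LC3 alone called 1379 for HC minus LC and 2322 for MC minus LC, and the covariate called 1044 for HC minus MC. Leaving out libraries gave 2 to 5 members and 1769 to 2842 genes for HC minus LC, 4 to 6 and 2838 to 4043 for MC minus LC, 2 to 5 and 1619 to 4066 for HC minus MC, and 3988 to 5901 genes in the F test. Without HC3 the HC minus LC count was 1769 and the HC minus MC count 1619, and the latter was 1676 without MC1, 1703 without MC2 and 1801 without HC2. Apart from the fewer samples or genes, the cause was not tested. The replicate block called 5, 6 and 4 members for HC minus LC, MC minus LC and HC minus MC, as without it. It called 3751, 4613 and 3871 genes, against 2939, 3894 and 2917 without it. Same-numbered libraries deviated from their diet means with correlations of -0.076 to 0.504, all above 0 except MC2 with HC2. For differently numbered libraries the correlations were -0.494 to 0.31. The labels do not say whether the numbers pair libraries, so the main fit leaves them out. Mapped depth is not given for any library, and for LC1, MC1 and HC1 no depth relative to LC3 could be inferred. No counting error can therefore be given for values under 1 FPKM.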
